A study of Bos taurus with 64 samples.

Results

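The miR-30 family was followed in skeletal muscle of cattle through its 6 members in the count table, bta-miR-30a-5p, bta-miR-30b-5p, bta-miR-30c, bta-miR-30d, bta-miR-30e-5p and bta-miR-30f, named below without the species prefix bta. The members were taken by name, as 6 of the 1030 miRNA names in the table, and no measured value was used to choose them. All 6 were among the 318 miRNAs abundant enough to be tested. MicroRNAs (miRNAs) were sequenced in 64 muscle libraries from 59 steers, with 8 libraries in each of 8 groups. The groups were Holstein-Friesian steers on the concentrate diet with low or with high residual feed intake, Holstein-Friesian steers on grass with low or with high residual feed intake, and the same 4 groups of Charolais steers. Residual feed intake (RFI) is the feed an animal eats above or below that predicted from its size and growth, so that low-RFI steers are the more feed-efficient ones. Holstein-Friesian is a dairy breed and Charolais a beef breed, and the labels give no other treatment of these steers.

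Feed intake had been recorded for 77 Holstein-Friesian and 90 Charolais steers. Each of 2 feeding phases took 70 days, with 14 days between them to adapt to the new feed, and muscle was taken when a phase ended. Cut fresh grass was fed in the earlier phase. In the later phase the steers had free access to a concentrate that was 86% rolled barley, with 6% each of molasses and soya and 2% of a mineral and vitamin mix, and a limited amount of grass silage. Diet therefore cannot be told apart from age, from the order of the phases or from any handling that differed between them. The labels give no ages and do not name the muscle. Of the 5 steers sampled in both phases, 1 was labelled low in RFI on concentrate and high on grass. The skeletal muscle label was checked against 7 muscle miRNAs (miR-1, miR-133a, miR-133b, miR-206, miR-208b, miR-499 and miR-486), all of which were tested, and whose levels summed to 189558 ± 47858 CPM (counts scaled to a common library total, as described below; SD, n = 64). Most of this sum came from miR-486 (mean 104825 CPM) and miR-133a (74317 CPM). MiR-1 averaged only 247 CPM and miR-206 only 14.6 CPM, so the sum is not a joint measure of the 7.

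The miR-30 miRNAs share a seed, the stretch near the 5′ end that pairs with target mRNAs, so the members are expected to recognise overlapping sets of targets. In mammals the family is known as a repressor of connective tissue growth factor and other matrix genes in heart muscle, of the autophagy gene BECN1, and of RIP140, a co-repressor of the brown-fat programme, in mouse adipocytes. In cultured mouse myoblasts it favours differentiation. The members are made from separate hairpins. All 6 names had an entry in the RefSeq gene table of the ARS-UCD2.0 assembly, where they formed 3 pairs of neighbouring genes. Entries were ordered by start position, and whether a miRNA gene lies inside another gene was not examined. MIR30C and MIR30E followed each other in this order. The entry before them was NFYC, which encodes a subunit of the transcription factor NF-Y, and the entry after them was RIMS3. MIR30D and MIR30B were also adjacent. MIR30F and MIR30A had 1 entry between them in this order, the uncharacterised LOC132346186.

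The library totals ranged from 4795936 to 12245101 counts, with a median of 8143019. The rarest member, miR-30f, was counted between 177 and 1347 times in a library, and miR-30e-5p between 22964 and 152068 times, so no member was near the limit of detection. CPM values are counts per 1000000 counts of a library, after scaling by the trimmed mean of M-values (TMM), which corrects for a few very abundant miRNAs. MiR-10b alone made up between 19.3% and 74.5% of the counts of a library, so library totals depend strongly on this 1 miRNA. The lowest share was in replicate 1 of the Holstein-Friesian high-RFI grass group. The highest was in replicate 3 of the Holstein-Friesian low-RFI concentrate group. The TMM factors ranged from 0.511 to 2.43. The factors of 2 grass libraries stood above the rest, at 2.43 in replicate 1 of the Holstein-Friesian high-RFI group and 1.88 in replicate 5 of the Charolais low-RFI group. The smooth muscle miRNA miR-143 stood far from its group in 2 other Holstein-Friesian grass libraries, at 110805 CPM in replicate 2 of the low-RFI group and 50025 CPM in replicate 2 of the high-RFI group. The first of these 2 was also the library that TMM took as its reference. The results below were recomputed without either pair of libraries and with each library in turn as the reference.

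The family made up 1.80% ± 0.461 (SD, n = 64) of the counts of a library. On the TMM scale its summed level was 17810 ± 3448 CPM, and it ranged from 9854 to 24279 CPM. MiR-30e-5p was the most abundant member at 7918 ± 1873 CPM, which placed it 10th by mean level among the 318 tested miRNAs. MiR-30a-5p followed at 5329 ± 1030 CPM, miR-30d at 2694 ± 555 CPM and miR-30c at 1384 ± 308 CPM. MiR-30b-5p averaged 431 ± 67.8 CPM, and miR-30f, at 53.8 ± 10.9 CPM, was the rarest and ranked 108th (all SD, n = 64). The order of the members was the same in 63 of 64 libraries. In the remaining library miR-30a-5p was above miR-30e-5p, and these neighbours in the order were the only ones whose places changed. A median library held 1.51 times as much miR-30e-5p as miR-30a-5p, 3.28 times as much miR-30c as miR-30b-5p and 8.31 times as much miR-30b-5p as miR-30f. The mature members differ from each other at few bases, and the sources used here do not say how the authors assigned reads that fit more than 1 member. All values of the 6 members were whole numbers.

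**Figure D1:**
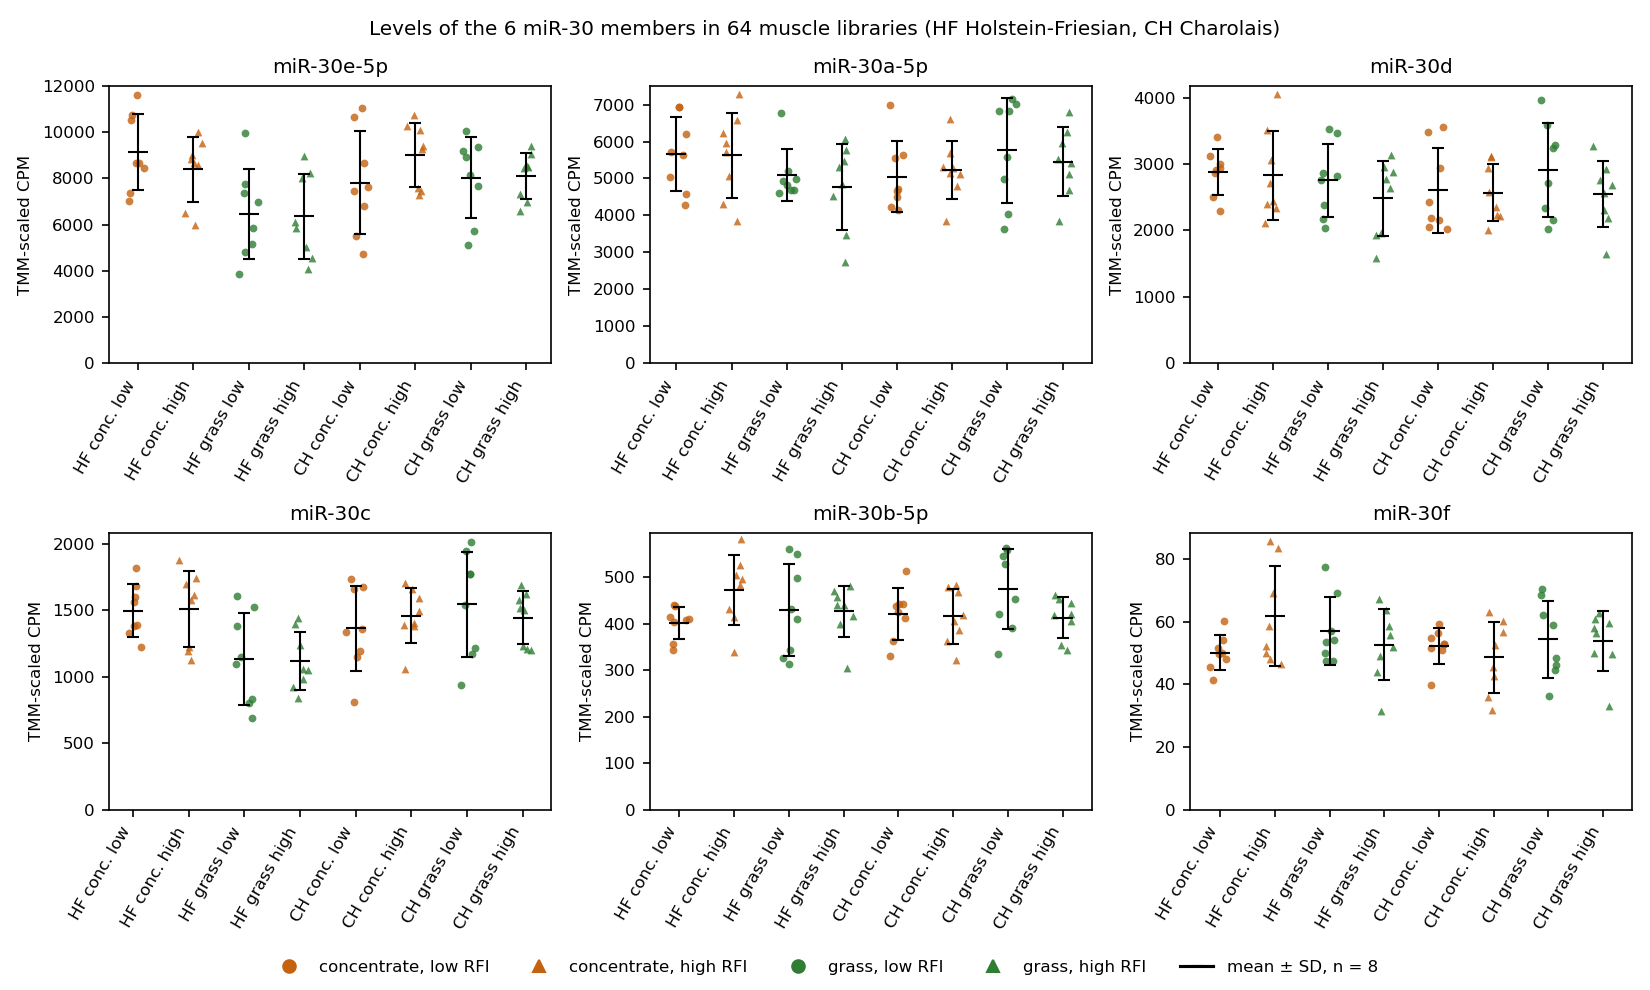
Level of each miR-30 member in TMM-scaled CPM (vertical axes, from 0) in the 8 groups of 8 libraries, as points with the mean ± SD; HF is Holstein-Friesian and CH Charolais, and low and high refer to RFI. The lowest group means are those of the low-RFI and high-RFI Holstein-Friesian groups on grass, at 1135 CPM (low) and 1117 CPM (high) for miR-30c and 6471 CPM (low) and 6358 CPM (high) for miR-30e-5p.

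The diet comparison in Holstein-Friesian steers asked whether members differed between the concentrate phase and the grass phase. MiR-30c and miR-30e-5p, whose genes are adjacent, were higher on concentrate, by 1.33 and 1.37 times. The other adjacent pair, miR-30d and miR-30b-5p, was not called. MiR-30c was between 1129 and 1880 CPM with a median of 1569 CPM on concentrate, against 689 to 1606 CPM with a median of 1076 CPM on grass (n = 16 libraries each). All 16 concentrate libraries lay above the grass median, 6 lay above the highest grass library, and 9 grass libraries lay below the lowest concentrate library. The means were 1502 ± 239 CPM on concentrate and 1126 ± 280 CPM on grass (SD, n = 16 each), a log2 difference of 0.42 ± 0.11 (SE; adjusted p = 0.00239, edgeR quasi-likelihood test with Benjamini-Hochberg adjustment over all 318 miRNAs).

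MiR-30e-5p was between 5965 and 11620 CPM with a median of 8677 CPM on concentrate, against 3865 to 9950 CPM with a median of 5980 CPM on grass. In 15 of 16 concentrate libraries it was above the grass median, and 8 grass libraries lay below the lowest concentrate library, although the ranges overlapped. The means were 8768 ± 1541 CPM on concentrate and 6414 ± 1827 CPM on grass (SD, n = 16 each), with a log2 difference of 0.45 ± 0.12 (SE; adjusted p = 0.00223, edgeR). The other 4 members did not pass the test. MiR-30a-5p averaged 5642 ± 1047 CPM on concentrate and 4932 ± 940 CPM on grass (SD, n = 16 each; log2 difference 0.19 ± 0.10 SE, adjusted p = 0.154, edgeR). It passed in 24 of the 64 fits that each left out 1 library and with 3 of the 64 choices of TMM reference, whereas scaling by the total count turned its sign, at -0.10 (adjusted p = 0.611, edgeR). MiR-30d had a log2 difference of 0.13, with a 95% interval of -0.09 to 0.34. For miR-30b-5p and miR-30f the log2 differences were 0.03 and 0.02, with 95% intervals of -0.14 to 0.19 and -0.19 to 0.23.

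Thus 2 of 6 members were called in this comparison, both higher, beside 24.2% of all tested miRNAs called and 10.7% called higher. The median log2 difference was 0.16 over the members and 0.04 over all tested miRNAs. Both calls held in all 64 fits that left out 1 library and with all 64 choices of TMM reference, which gave log2 differences of 0.36 to 0.47 for miR-30c and 0.40 to 0.50 for miR-30e-5p. They were lost with scaling by the total count, which lowered the median of all tested miRNAs by 0.33 and gave log2 differences of 0.09 (adjusted p = 0.635, edgeR) for miR-30c and 0.17 (adjusted p = 0.398, edgeR) for miR-30e-5p.

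In Charolais steers the same comparison called 0 of 6 members, beside 20.8% of all tested miRNAs. No member had an unadjusted p under 0.05 in edgeR, and DESeq2 and limma-voom also called 0. MiR-30c averaged 1412 ± 263 CPM on concentrate and 1495 ± 307 CPM on grass, and miR-30e-5p averaged 8418 ± 1901 CPM on concentrate and 8071 ± 1390 CPM on grass (SD, n = 16 each). The 95% intervals of the log2 differences were -0.30 to 0.14 for miR-30c and -0.18 to 0.29 for miR-30e-5p. MiR-30a-5p had the lowest difference of the 6, -0.13 ± 0.10 (SE), and the members' median was -0.08, against -0.01 over all tested miRNAs.

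Averaged over the breeds and RFI groups, 1 of 6 members was called between the diets, beside 34% of all tested miRNAs called and 17.9% called higher. It was miR-30e-5p, with 8593 ± 1711 CPM on concentrate and 7243 ± 1805 CPM on grass (SD, n = 32 each). Its log2 difference was 0.25 ± 0.08 (SE; adjusted p = 0.0139, edgeR), and 22 of 32 concentrate libraries lay above the grass median. MiR-30c had a log2 difference of 0.17 ± 0.08 (SE; adjusted p = 0.0864, edgeR), which passed the test in 57 of the 64 fits that left out 1 library and with 54 of the 64 TMM references. With the steer as a random block it also passed (0.19, adjusted p = 0.0483, limma-voom). The other 4 members had log2 differences between -0.04 and 0.03. With scaling by the total count, miR-30e-5p no longer passed (0.03, adjusted p = 0.815, edgeR), whereas miR-30b-5p and miR-30f were lower on concentrate, with log2 differences of -0.29 (adjusted p = 0.0209, edgeR) and -0.30 (adjusted p = 0.0341, edgeR). That scaling moved the median of all tested miRNAs by -0.25.

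The breed comparison on grass asked whether members differed between the dairy and the beef breed on the same feed. It uses the same Holstein-Friesian grass libraries as the diet comparison, so their results are not independent. MiR-30c and miR-30e-5p were again the members called, both lower in Holstein-Friesian steers, beside 30.2% of all tested miRNAs called and 15.4% called lower. MiR-30c was between 689 and 1606 CPM with a median of 1076 CPM in Holstein-Friesian steers, against 939 to 2017 CPM with a median of 1529 CPM in Charolais steers (n = 16 libraries each). Of the 16 Holstein-Friesian libraries 15 lay below the Charolais median and 5 below the lowest Charolais library. The means were 1126 ± 280 CPM in Holstein-Friesian steers and 1495 ± 307 CPM in Charolais steers (SD, n = 16 each), with a log2 difference of -0.41 ± 0.11 (SE; adjusted p = 0.00385, edgeR).

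MiR-30e-5p was between 3865 and 9950 CPM with a median of 5980 CPM in Holstein-Friesian steers, against 5129 to 10038 CPM with a median of 8475 CPM in Charolais steers. Its level was below the Charolais median in 14 of 16 Holstein-Friesian libraries, with overlapping ranges. The means were 6414 ± 1827 CPM in Holstein-Friesian steers and 8071 ± 1390 CPM in Charolais steers (SD, n = 16 each), and the log2 difference was -0.33 ± 0.12 (SE; adjusted p = 0.0244, edgeR). The other 4 members did not pass, with log2 differences from -0.19 for miR-30a-5p to 0.02 for miR-30f. The members' median log2 difference was -0.12, against 0.01 over all tested miRNAs.

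The call of miR-30c in this breed comparison held in all 64 fits that left out 1 library and with all 64 TMM references. Over the references its log2 difference was -0.41 to -0.30, with a median of -0.36. The reported value was thus the largest of these in size. The call of miR-30e-5p held in 42 of the 64 fits that left out 1 library and with 46 of the 64 references. Over the references miR-30e-5p was at -0.34 to -0.23, with a median of -0.29, so its reported value also lay at the large end. Without the 2 libraries of highest TMM factor the log2 difference of miR-30e-5p was -0.28 (adjusted p = 0.0684, edgeR). Without the 2 libraries far in miR-143 it was also -0.28 (adjusted p = 0.0541, edgeR). With the steer as a fixed block it was -0.31 (adjusted p = 0.0522, edgeR). Neither member passed with scaling by the total count, which gave -0.21 for miR-30c and -0.15 for miR-30e-5p, or with upper-quartile scaling, which gave -0.29 and -0.22. These scalings raised the median of all tested miRNAs by 0.20 and 0.12. Scaling by the total count after leaving out miR-10b raised it by 0.24 and gave -0.17 for miR-30c (adjusted p = 0.152, edgeR) and -0.10 for miR-30e-5p (adjusted p = 0.512, edgeR).

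**Figure D2:**
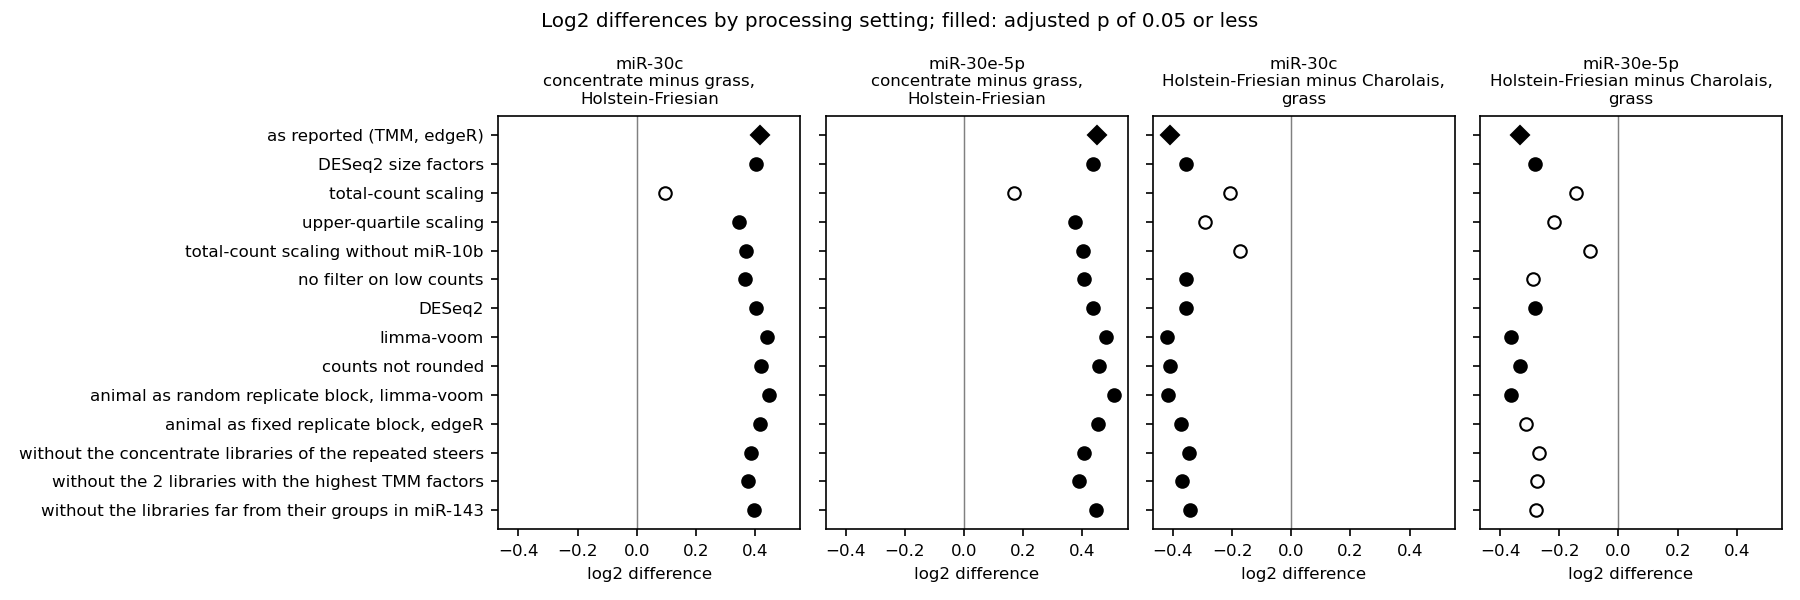
Log2 difference (horizontal axes) of miR-30c and miR-30e-5p between concentrate and grass in Holstein-Friesian steers and between Holstein-Friesian and Charolais steers on grass, for the reported fit (diamond) and each alternative (circles); filled symbols have an adjusted p of 0.05 or less. All points keep the sign of the reported fit, and the points nearest to 0 are scaling by the total count for the diet difference, at 0.09 and 0.17, and scaling by the total count without miR-10b for the breed difference, at -0.17 and -0.10.

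On concentrate no member passed the test between the breeds. Of the 6 members 0 were called, beside 1.57% of all tested miRNAs, and DESeq2 and limma-voom called 0 as well. No unadjusted p was under 0.05 in edgeR. All 6 log2 differences were positive, from 0.06 for miR-30b-5p to 0.14 for miR-30f, and all their 95% intervals included 0. MiR-30c averaged 1502 ± 239 CPM in Holstein-Friesian steers and 1412 ± 263 CPM in Charolais steers, with an interval of -0.13 to 0.31 for the log2 difference. MiR-30e-5p averaged 8768 ± 1541 CPM in Holstein-Friesian steers and 8418 ± 1901 CPM in Charolais steers (SD, n = 16 each), with an interval of -0.17 to 0.30.

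Over both diets the breed difference called 0 of 6 members, beside 21.7% of all tested miRNAs. Only miR-30c had an unadjusted p under 0.05 in edgeR, at a log2 difference of -0.16 ± 0.08 (SE; adjusted p = 0.135), and DESeq2 and limma-voom called 0. With scaling by the total count after leaving out miR-10b, 3 members were higher in Holstein-Friesian steers, at log2 differences of 0.18 for miR-30b-5p (adjusted p = 0.0182, edgeR), 0.22 for miR-30d (adjusted p = 0.014, edgeR) and 0.28 for miR-30f (adjusted p = 0.00994, edgeR). That scaling raised the median of all tested miRNAs by 0.19 and called 114 of the 318, of which 109 were higher.

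Whether the diet difference itself differed between the breeds was tested as an interaction. It called 0 of 6 members, beside 3.46% of all tested miRNAs, although 3 members had an unadjusted p under 0.05 in edgeR. For miR-30c the diet difference was larger in Holstein-Friesian than in Charolais steers by 0.50 ± 0.15 on the log2 scale (SE; adjusted p = 0.0502, edgeR), just above the threshold of 0.05. This value passed with limma-voom (0.52, adjusted p = 0.0378), also with the steer as a random block (0.53, adjusted p = 0.022, limma-voom), and DESeq2 called 0 members. Leaving out 1 library made it pass in 21 of 64 fits. It passed with 8 of the 64 TMM references, over which its median was 0.43 and its adjusted p reached 0.112 (edgeR). The interaction was 0.39 ± 0.17 for miR-30e-5p (SE; adjusted p = 0.158, edgeR) and 0.32 ± 0.15 for miR-30a-5p (SE; adjusted p = 0.199, edgeR). All 6 values were positive, with a median of 0.26, against 0.02 over all tested miRNAs.

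**Figure D3:**
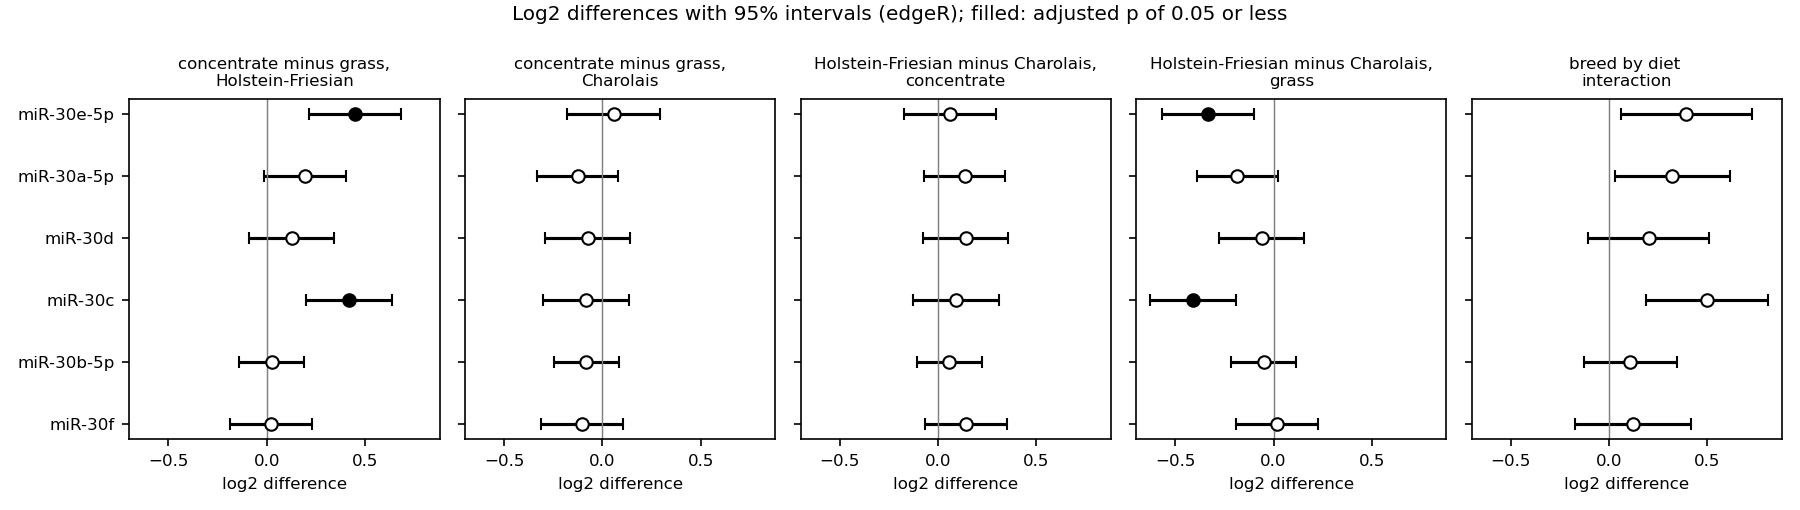
Log2 difference of each member (horizontal axes) with its 95% interval from edgeR, for the diet difference in each breed, the breed difference on each diet and the interaction; filled points have an adjusted p of 0.05 or less. The filled points are miR-30c and miR-30e-5p, at 0.42 and 0.45 for diet in Holstein-Friesian steers and at -0.41 and -0.33 for breed on grass.

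The make-up of the family does not depend on library scaling, since each member is set against the summed counts of the 6 members in the same library. In Holstein-Friesian steers miR-30e-5p made up 45.5% ± 3.22 of the family on concentrate and 40.7% ± 3.55 on grass (SD, n = 16 each). In Charolais steers it made up 46.4% ± 4.0 on concentrate and 44.0% ± 2.48 on grass. Holstein-Friesian muscle on grass thus had the lowest mean share of miR-30e-5p of the 4 combinations, with libraries between 32.3% and 46.3%.

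The share of miR-30d was highest in Holstein-Friesian steers on grass, although its level averaged 2851 ± 514 CPM on concentrate and 2615 ± 561 CPM on grass in these steers (SD, n = 16 each). Its share in Holstein-Friesian steers was 14.8% ± 1.17 on concentrate and 16.8% ± 1.24 on grass, against 14.4% ± 1.67 on concentrate and 14.8% ± 1.66 on grass in Charolais steers (SD, n = 16 each). MiR-30a-5p made up 29.3% ± 3.14 on concentrate and 32% ± 3.96 on grass in Holstein-Friesian steers, against 28.7% ± 2.82 on concentrate and 30.4% ± 1.77 on grass in Charolais steers (SD, n = 16 each). The share of miR-30b-5p was 2.29% ± 0.359 on concentrate and 2.83% ± 0.727 on grass in Holstein-Friesian steers. The share of miR-30c, at 7.87% ± 1.15 on concentrate and 7.26% ± 1.12 on grass in Holstein-Friesian steers, differed by less than the spread between libraries. In these steers the same held for miR-30a-5p, and for miR-30b-5p against its SD on grass. The shares are a description and were not tested. Set against all counts of a library, the family was 1.85% ± 0.544 on concentrate and 1.83% ± 0.51 on grass in Holstein-Friesian steers, against 1.65% ± 0.383 on concentrate and 1.89% ± 0.395 on grass in Charolais steers (SD, n = 16 each).

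**Figure D4:**
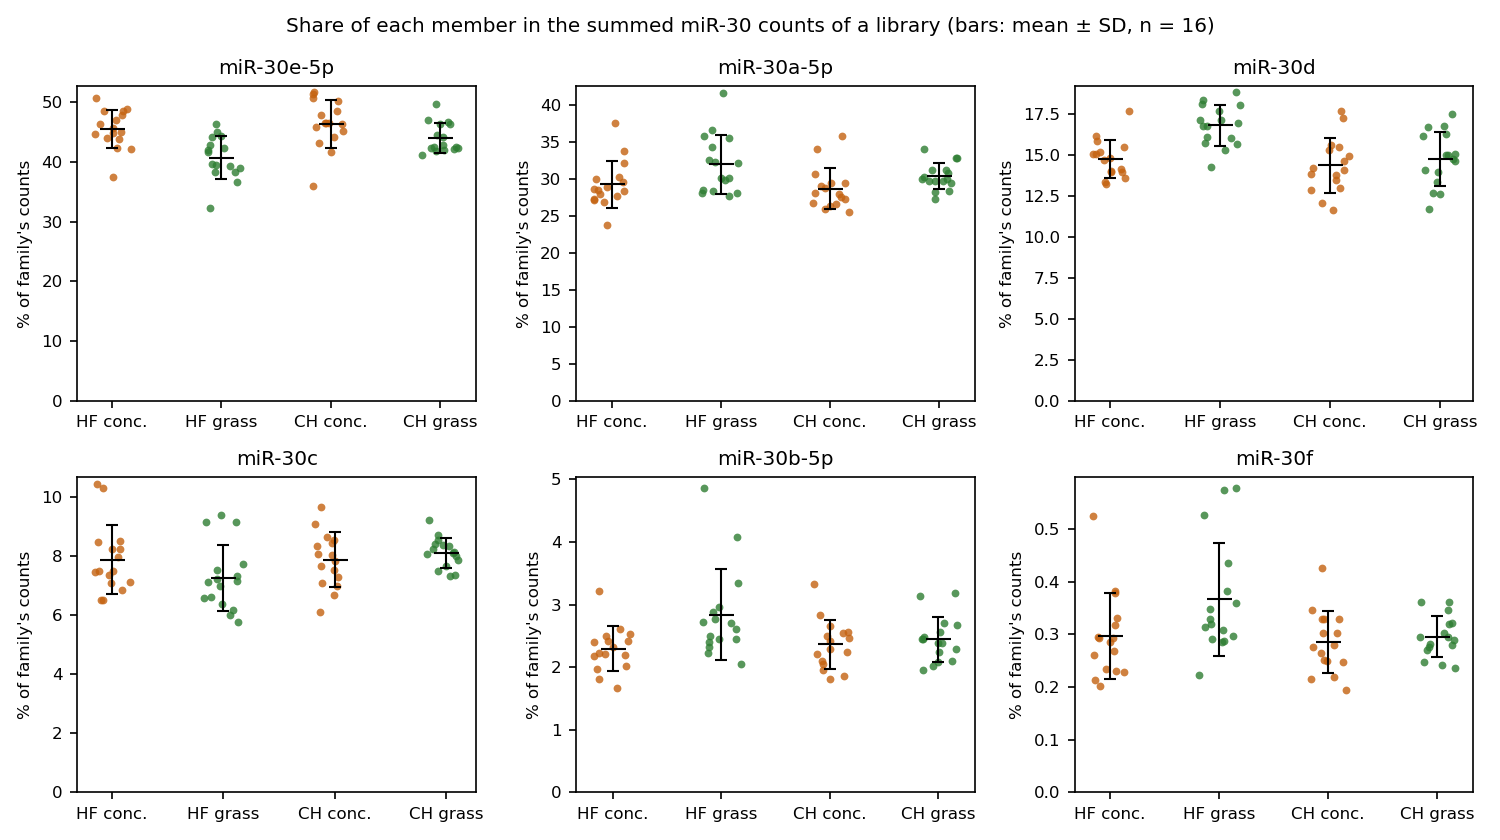
Share of each member in the summed miR-30 counts of a library, in percent (vertical axes, from 0), for Holstein-Friesian (HF) and Charolais (CH) steers on concentrate and on grass, as points with the mean ± SD of 16 libraries. The mean share of miR-30e-5p is lowest and that of miR-30d highest in Holstein-Friesian steers on grass, at 40.7% and 16.8%.

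No member passed the test between low-RFI and high-RFI steers. In each of the 4 breed and diet combinations, on average over them, and for the difference of the RFI effect between breeds or between diets, 0 of 6 members were called, beside 0% of all tested miRNAs in each of these 7 comparisons. DESeq2 and limma-voom also called 0 members in all 7. On average the log2 differences lay between -0.02 for miR-30e-5p and 0.10 for miR-30d, and the 95% intervals of all 6 lay within -0.18 to 0.25. MiR-30d averaged 2785 ± 563 CPM in low-RFI steers and 2604 ± 539 CPM in high-RFI steers (SD, n = 32 each).

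A single member had an unadjusted p under 0.05 in any RFI comparison. It was miR-30f in Holstein-Friesian steers on concentrate, with 41.4 to 60.2 CPM and a median of 49.8 CPM in low-RFI steers, against 46.6 to 85.6 CPM and a median of 55.4 CPM in high-RFI steers (n = 8 libraries each). The log2 difference was -0.30 ± 0.15 (SE; adjusted p = 0.429, edgeR). In the same steers miR-30b-5p averaged 401 ± 34.6 CPM at low RFI and 472 ± 74.9 CPM at high RFI (SD, n = 8 each; log2 difference -0.23 ± 0.12 SE, adjusted p = 0.443, edgeR). The size of both depended on the scaling. The log2 difference was -0.66 for miR-30f and -0.54 for miR-30b-5p with the total count, which moved the median of all tested miRNAs by -0.32. It was -0.07 for miR-30f and -0.01 for miR-30b-5p with the upper quartile, which moved that median by 0.23. Neither member was called under any of these. MiR-30c averaged 1498 ± 200 CPM at low RFI and 1506 ± 286 CPM at high RFI in these steers, so the groups nearly coincided in that member. The intervals of the 6 comparisons other than the average were wide, from -0.60 to 0.52 over the 6 members. Within the single combinations of breed and diet they ran from -0.60 to 0.50.

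The members differed in how closely they followed each other from library to library. Taking the deviations of log2 CPM from the 8 group means, the correlation was highest for miR-30c and miR-30e-5p, whose genes are adjacent, at Pearson's r = 0.81 over 64 libraries, as a description. Their ratio was also narrow, at 0.177 miR-30c per miR-30e-5p in the median library and between 0.129 and 0.253 in all. The SD of its log2 value was 0.200, while the ratio of miR-30a-5p to miR-30d varied less, with an SD of 0.187. MiR-30a-5p with miR-30d (r = 0.80), and miR-30d with miR-30e-5p (r = 0.80), followed closely although their genes are not neighbours in the table. The other pairs of neighbours had r = 0.63 for miR-30b-5p with miR-30d and r = 0.57 for miR-30a-5p with miR-30f. MiR-30b-5p and miR-30f had the lowest value, 0.12, and the median over the 15 pairs was 0.59. The values of a library share its scaling factor, and its part in these correlations was not tested.

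**Figure D5:**
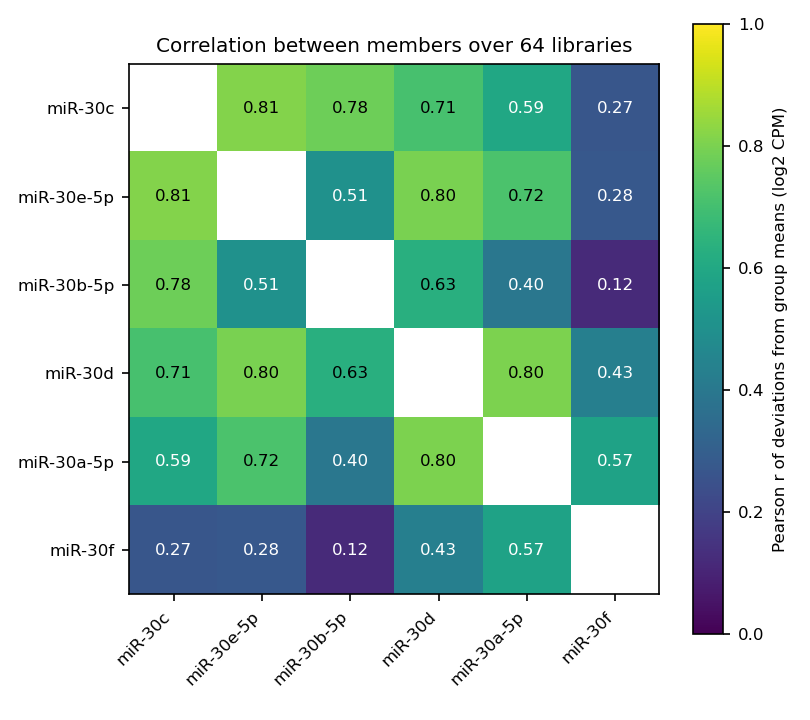
Pearson's r between the deviations from the group means of each pair of members over 64 libraries (log2 CPM; colour from 0 to 1), with neighbouring genes placed side by side. Values run from 0.12 for miR-30b-5p with miR-30f to 0.81 for miR-30c with miR-30e-5p.

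Against the sum of the other 5 members, miR-30d had the highest correlation (r = 0.86) and miR-30f the lowest (r = 0.42). Among the 166 other miRNAs with a mean of at least 10 CPM, those most like the summed family over the 64 libraries were miR-378 (r = 0.77), miR-196a (r = 0.73), miR-320a (r = 0.70), miR-331-3p (r = 0.68) and miR-2284x (r = 0.67). MiR-378, which lies within the PPARGC1B gene in mouse and human and is known there for its role in oxidative metabolism, averaged 18434 CPM. It was lower in Holstein-Friesian than in Charolais steers on grass, with a log2 difference of -0.41 ± 0.12 (SE; adjusted p = 0.00661, edgeR).

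The 5 steers with a library from each phase allowed a direct look at the diet difference within an animal. They comprised 1 Holstein-Friesian and 4 Charolais steers. In the Holstein-Friesian steer miR-30e-5p was 10033 CPM on concentrate and 4549 CPM on grass, and miR-30c was 1614 CPM on concentrate and 1053 CPM on grass. The grass library of this steer was the one with the highest TMM factor. In the 4 Charolais steers miR-30e-5p was 7595, 7473, 11049 and 9403 CPM on concentrate, against 8536, 8433, 9208 and 6988 CPM on grass in the same order of animals. Of these 4, 2 were higher and 2 lower on concentrate. It was higher on concentrate in 3 of the 5 steers, with a mean log2 difference of 0.30 ± 0.54 (SD, n = 5), so the spread between steers exceeded the mean. MiR-30c was 1659, 1362, 1657 and 1393 CPM on concentrate in the 4 Charolais steers, against 1519, 1621, 2017 and 1201 CPM on grass in the same order. Again 2 were higher and 2 lower, and the mean log2 difference over the 5 steers was 0.08 ± 0.37 (SD, n = 5). With 5 pairs, an exact two-sided permutation test cannot give a p below 0.0625.

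The table held 1 other row of these hairpins, the opposite arm miR-30b-3p, which summed to 434 counts over the 64 libraries, with 0 to 27 in a library and a median of 6. That is 0.18% of the counts of miR-30b-5p. In edgeR its adjusted p was 0.154 or more in all 14 comparisons.

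Markers of other cell types were compared in the same fits, because in bulk tissue fewer cells of a type and less RNA per cell cannot be told apart. Of 5 smooth muscle and fibroblast miRNAs, all of them detected, 4 were higher in Holstein-Friesian than in Charolais steers on grass, beside 14.8% of all tested miRNAs called higher, among them miR-143 (log2 difference 0.47 ± 0.16 SE, adjusted p = 0.0163, edgeR) and miR-199a-3p (0.65 ± 0.17 SE, adjusted p = 0.00326, edgeR). In Holstein-Friesian steers 2 of the 5 were lower on concentrate than on grass, beside 13.5% of all tested miRNAs, with log2 differences of -0.61 for miR-199a-3p and -0.62 for miR-214. Their summed level was 15766 to 41762 CPM on concentrate and 14070 to 113378 CPM on grass in Holstein-Friesian steers, against 16903 to 39212 CPM on grass in Charolais steers. The part of these markers in the differences of miR-30c and miR-30e-5p was not tested. Without the 2 libraries far in miR-143, miR-30c and miR-30e-5p remained called between the diets in Holstein-Friesian steers, while between the breeds on grass miR-30c was called (-0.34, adjusted p = 0.0127, edgeR) and miR-30e-5p was not (-0.28, adjusted p = 0.0541, edgeR).

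Of the 7 muscle miRNAs 1 passed between concentrate and grass in Holstein-Friesian steers, beside 24.2% of all tested miRNAs called and 10.7% called higher. It was miR-1, which promotes muscle differentiation, higher on concentrate by 0.78 ± 0.13 on the log2 scale (SE; adjusted p = 2.63e-06, edgeR). The other 6 did not pass. The interaction of breed and diet passed for 1 of the 7, miR-1 (0.62 ± 0.18 SE, adjusted p = 0.0373, edgeR), beside 3.46% of all tested miRNAs. On grass miR-486 (-0.58) and miR-133a (-0.43) were lower and miR-206 (0.81) was higher in Holstein-Friesian than in Charolais steers. Of all tested miRNAs 15.4% were called lower and 14.8% higher there. The summed level of the 7 was 110067 to 242710 CPM on concentrate and 87915 to 237096 CPM on grass in Holstein-Friesian steers, against 150768 to 333486 CPM on grass in Charolais steers. Their part in the miR-30 differences was not tested.

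Of 10 other miRNAs known as repressors of connective tissue growth factor or collagens, 2 passed the test between concentrate and grass in Holstein-Friesian steers. Both were higher on concentrate, beside 24.2% of all tested miRNAs called and 10.7% called higher. These were miR-29c (0.49 ± 0.11 SE, adjusted p = 0.000424, edgeR) and miR-29b (0.59 ± 0.13 SE, adjusted p = 0.000424, edgeR), which repress collagen genes in mouse and human cells. On grass 3 of the 10 passed, beside 30.2% of all tested miRNAs called and 15.4% called lower. All 3 were lower in Holstein-Friesian than in Charolais steers, namely miR-133a (-0.43), miR-29a (-0.33) and miR-29c (-0.46). Of 18 tested miRNAs linked to fat cell formation, 3 passed between concentrate and grass in Holstein-Friesian steers, all lower on concentrate, beside 24.2% of all tested miRNAs called and 13.5% called lower. The most abundant of these was miR-21-5p, with a log2 difference of -0.80 ± 0.16 (SE; adjusted p = 8.97e-05, edgeR). Of the 18, only miR-21-5p passed in the interaction (-0.86 ± 0.23 SE, adjusted p = 0.0177, edgeR), beside 3.46% of all tested miRNAs. On grass 6 of the 18 were higher and 1, miR-378, was lower in Holstein-Friesian than in Charolais steers, beside 14.8% of all tested miRNAs called higher and 15.4% called lower.

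Among blood cell markers, the erythrocyte miRNAs miR-451 and miR-144 had log2 differences between concentrate and grass of 0.84 (adjusted p = 0.239, edgeR) and 0.51 (adjusted p = 0.51, edgeR) in Holstein-Friesian steers. In Charolais steers both were higher on concentrate, with log2 differences of 1.76 and 1.68. Of 6 leukocyte miRNAs 2, miR-342 and miR-150, were higher on concentrate in Holstein-Friesian steers, beside 10.7% of all tested miRNAs called higher. In Charolais steers 3 of the 6 were higher, beside 9.43% of all tested miRNAs. The interaction did not pass for miR-451 (adjusted p = 0.442, edgeR), miR-144 (adjusted p = 0.351, edgeR), miR-342 (adjusted p = 0.14, edgeR) or miR-150 (adjusted p = 0.442, edgeR). On grass 1 of the 6 leukocyte miRNAs, miR-155 (0.62, adjusted p = 0.004, edgeR), was higher in Holstein-Friesian than in Charolais steers. Of 2 endothelial miRNAs, miR-126-3p was also higher there (0.34, adjusted p = 0.00895, edgeR), beside 14.8% of all tested miRNAs. Of 2 tested liver miRNAs, miR-192 was lower there (-0.20, adjusted p = 0.0494, edgeR), beside 15.4%. In Holstein-Friesian steers miR-192 was higher on concentrate (0.24, adjusted p = 0.0219, edgeR), beside 10.7%. The part of these cell types in the miR-30 values was not tested.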

How the data were processed

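The authors deposited a table of estimated counts per miRNA, not normalized, with a column for each library. The build ARS-UCD1.2 and the tools cutadapt 2.6, FastQC 0.11.8, edgeR 3.5 and R 3.4 are listed, per the submitters' processing notes, with no role stated. The sources used here do not give the aligner, counter or annotation. RNA came from a Qiagen RNeasy Plus Universal kit and libraries from a stranded Illumina TruSeq kit, per the labels' protocols. The RefSeq gene table used for gene neighbours is of another assembly, ARS-UCD2.0, so no coordinates are given.

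Counts were rounded to whole numbers and analysed with edgeR 4.0.16 in R 4.3.3. miRNAs were filtered with filterByExpr, which kept 318 names. The names left out held 0.00592% of all counts. Libraries were scaled with TMM, and 8 group means were fitted with a robust quasi-likelihood model with 56 residual degrees of freedom. Calls were made at 0.05 or less after Benjamini-Hochberg adjustment over all 318. There were 14 contrasts. Error bars on log2 differences are standard errors (SE) and 95% intervals come from the same fit. Log2 CPM used a prior count of 2. Replicates were separate steers within a group. The most similar pair of libraries differed by a chi-square of 75.4 per degree of freedom, so none was a repeat deposit.

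The steer numbers in the labels pair 5 grass and concentrate libraries. The deviations of the paired libraries from their group means correlated at 0.288, -0.111, 0.165, 0.398 and 0.599 over all tested miRNAs, and the estimated correlation of libraries from 1 steer was 0.392. The reported fit had no steer block. The alternatives were other scalings, no filter, DESeq2 1.42.0, limma-voom (limma 3.58.1), counts without rounding, the steer as a block, leaving out libraries, and other TMM references. The last of these, and leaving out libraries that stand apart, were chosen after the data were seen. The fit was tested on simulated data first.

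The marker lists and the lists of related miRNAs were written with earlier results of these data known. Such results were also known when the members were taken by name, although no measured value was used to choose them. The text names all 6 members, other arms of the same hairpins, the 5 miRNAs that follow the summed family most closely, and from each list at most 3 called miRNAs of highest mean level.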

Additional observations from a re-analysis of the deposited data

Results flagged for a closer look

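Each member was screened in each of the 8 groups for a library far from the other 7, which gave 48 screens. Chance alone flags about 1 screen in 20, and 4 were flagged, 1 high and 3 low. MiR-30a-5p was 6764 CPM in replicate 7 of the Holstein-Friesian low-RFI grass group, above the other libraries of the group. MiR-30b-5p was 305 CPM in replicate 2 of the Holstein-Friesian high-RFI grass group, below the others, and this library was also far from its group in miR-143. MiR-30f was 33.2 CPM in replicate 8 of the Charolais high-RFI grass group and 39.9 CPM in replicate 1 of the Charolais low-RFI concentrate group, each below the others of its group. No screen of miR-30c, miR-30d or miR-30e-5p was flagged.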

How the results depend on the processing

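No RFI count, and no count for diet in Charolais steers or for breed on concentrate, changed from 0 under any alternative run. No called value changed sign. For diet in Holstein-Friesian steers the count of 2 became 0 with scaling by the total count. Leaving out 1 library gave 2 to 3, in 24 of 64 fits with miR-30a-5p as the third, which was also called with 3 of 64 TMM references. For breed on grass the count of 2 became 0 with scaling by the total count, by the upper quartile, or by the total without miR-10b. It became 1 with no filter on low counts, with the steer as a fixed replicate block, without the second library of each steer sampled in both phases, without the 2 libraries of highest TMM factor, without those far in miR-143, and with the least favourable TMM reference. Leaving out 1 library gave 1 to 2. For diet on average the count of 1 became 2, with miR-30c beside miR-30e-5p, under several alternatives. These were DESeq2, DESeq2 size factors, the total without miR-10b, the random replicate block, the removal of the libraries far in miR-143, and 54 of 64 TMM references. Scaling by the total count also gave 2, but these were miR-30b-5p and miR-30f, both lower on concentrate, and miR-30e-5p was lost. Leaving out 1 library gave 1 to 2. For breed on average the count of 0 became 3 with the total without miR-10b, and 1, miR-30c, with 1 TMM reference. Leaving out 1 library gave 0 to 1, the 1 being miR-30c without replicate 5 of the Charolais low-RFI concentrate group or replicate 7 of the Holstein-Friesian low-RFI grass group. The interaction count of 0 became 1, miR-30c, with limma-voom, counts not rounded, the random replicate block (0.53, adjusted p = 0.022), 8 of 64 TMM references, and in 21 of 64 fits that left out 1 library. Leaving out a library also changes the TMM reference in some fits. The steer as a block changed no other call of a member. The causes of these changes were not tested.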
